A study of Mus musculus with 4 samples.

Results

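The genes described here are 10 that encode the contractile apparatus of smooth muscle in the gastric wall: Acta2, Actg2, Myh11, Tagln, Cnn1, Des, Smtn, Lmod1, Synpo2 and Nexn. They were taken as the probes whose platform annotation gives exactly 1 gene symbol and that symbol is on the list, which found 1 probe for each gene. That is 10 of the 13840 genes with such a probe, and 10 of 33012 probes in all. Expression was measured on single-colour microarrays in whole stomach of male, chow-fed mice after 4 h of food deprivation. The congenic strain, B6.CAST-17, is homozygous and by its name carries a piece of chromosome 17 of CAST origin on a B6 background, and wild-type mice were C57BL/6J. Each strain was represented by 2 pools of equal amounts of RNA from 3 animals, so 6 animals per strain were read on 4 arrays. The sources used here give neither the age of the mice nor the ends of the chromosome 17 piece, and a pool hides the spread between its 3 animals. The study's title concerns Glp1r expression and the rate of gastric emptying, which the muscle of the stomach wall drives.

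Smooth muscle shortens when myosin pulls on actin filaments that are anchored in dense bodies and at the cell membrane. Calcium bound to calmodulin switches on the myosin light chain kinase, a phosphatase switches the myosin off, and thin filament proteins such as calponin and caldesmon restrain it. In the stomach this muscle grinds food in the antrum and holds tone in the fundus, and its genes are widely used as markers of the differentiated muscle layer. Many of them carry a CArG box, the binding sequence of serum response factor, near the start of transcription.

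None of the 10 genes lies on chromosome 17, the chromosome that differs between the strains. Des and Lmod1 are genes of chromosome 1, Synpo2 and Nexn of chromosome 3, Actg2 of chromosome 6, Tagln and Cnn1 of chromosome 9, Smtn of chromosome 11, Myh11 of chromosome 16 and Acta2 of chromosome 19, by the mouse reference annotation. RefSeq promoter sequences (assembly GRCm38.p6) were matched for 6 of the genes, Acta2, Lmod1, Cnn1, Des, Smtn and Synpo2. Actg2, Myh11, Tagln and Nexn were not searched. The 250 bases before the start were searched for the CArG box with at most 1 mismatch, which reads the same way on both strands. Of the 6, 2 held matches, Acta2 and Lmod1, with 2 matches each, all with 1 mismatch. Among all 32851 promoters of the table, 18.6% held at least 1 such match and 2.96% held 2 or more. The Acta2 and Lmod1 stretches are shown because they are the members with a match. Each is printed 5′ to 3′ on the gene's strand with the matches in capitals, and the last base lies just before the annotated start.
Acta2, chr19:34255374-34255623, minus strand: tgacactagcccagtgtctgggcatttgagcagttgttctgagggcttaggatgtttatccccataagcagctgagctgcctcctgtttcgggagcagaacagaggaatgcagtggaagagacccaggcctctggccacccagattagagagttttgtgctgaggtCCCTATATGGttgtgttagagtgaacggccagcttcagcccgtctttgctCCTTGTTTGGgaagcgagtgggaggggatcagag
Lmod1, chr1:135324563-135324812, plus strand: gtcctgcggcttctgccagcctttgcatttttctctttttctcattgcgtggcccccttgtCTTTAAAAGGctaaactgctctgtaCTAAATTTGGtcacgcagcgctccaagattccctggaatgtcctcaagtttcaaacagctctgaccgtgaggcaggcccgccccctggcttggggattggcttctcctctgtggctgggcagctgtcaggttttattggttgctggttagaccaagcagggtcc
The Acta2 matches begin 84 and 34 bases before the start, and those of Lmod1 189 and 164 bases before it. Cnn1, Des, Smtn and Synpo2 had no match, which says only that these letters are not in this window. No binding was measured in this series.

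A value was given for between 16320 and 16954 probes per array, and 13475 probes had one on every array. Across probes, which are no replicates of one another, the congenic pools correlated at Pearson's r = 0.991 and the wild-type pools at 0.988. Pools of different strains correlated nearly as highly, at 0.983 to 0.986. Of the 10 genes, 8 had a value on all 4 arrays and entered the comparison, and 2 had a value on 1 array only. A difference is the congenic mean minus the wild-type mean in log2 units, ± SE from limma with 2 pools per strain, and adjusted p-values are over all 13475 probes. The labels call the pools biological replicates, and a p-value here reflects how far pools of a strain lie apart. That spread is taken from the probe itself and, through limma's prior, from other probes of like signal. The prior has 3.97 degrees of freedom against 2 residual ones.

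Most of the 8 genes with a value on every array read high on each of them. Tagln read above 99.1% to 99.3% of the values of its array, Actg2 above 98.1% to 98.4%, Myh11 above 97.9% to 98.0%, and Acta2 above 92.1% to 92.5%. Des lay above 90.9% to 92.5% of values, Lmod1 above 89.9% to 91.7% and Smtn above 85.5% to 87.8%. Cnn1 lay above 26.5% to 28.4% of values, and was the exception among the 8. The other members did not read high either. On the 1 array where each had a value, Synpo2 lay above 25.9% of values and Nexn above 45.7%. Probes differ in how well they bind their transcript, so these percentiles place each probe within its array and give no order of transcript numbers among the genes. Within each of the 8 genes the percentile moved by less than 3 points over the 4 arrays.

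None of the 8 measured genes passed an adjusted p of 0.05 between the strains in limma, where 0.475% of all probes did. The differences were small, from -0.31 for Smtn to 0.14 for Lmod1, or from 1.24-fold lower to 1.10-fold higher in the congenic pools. Of the 8, 7 were negative and 1 positive, with a median of -0.11, where the median over all probes was -0.0020 and 50.4% of them were negative. An unadjusted p under 0.05 was reached by 3 of the 8, Smtn, Des and Tagln, all lower in the congenic pools, against 8.66% of all probes in that direction and 15.8% in either. Leaving out the first pool of either strain left 2 of these 3 genes under 0.05, and leaving out the other pool of either strain, or the variance trend, left 1. In 5 of the 8 both congenic values lay below both wild-type values, against 26.1% of all probes. The 95% intervals of all 8 lay between -0.50 and 0.41, that is between 0.71-fold and 1.33-fold, so a change of 2-fold in either direction lay outside each of them. No decrease was established here, and if there were one, fewer muscle cells and less RNA per cell could not be told apart in bulk tissue.

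**Figure D1:**
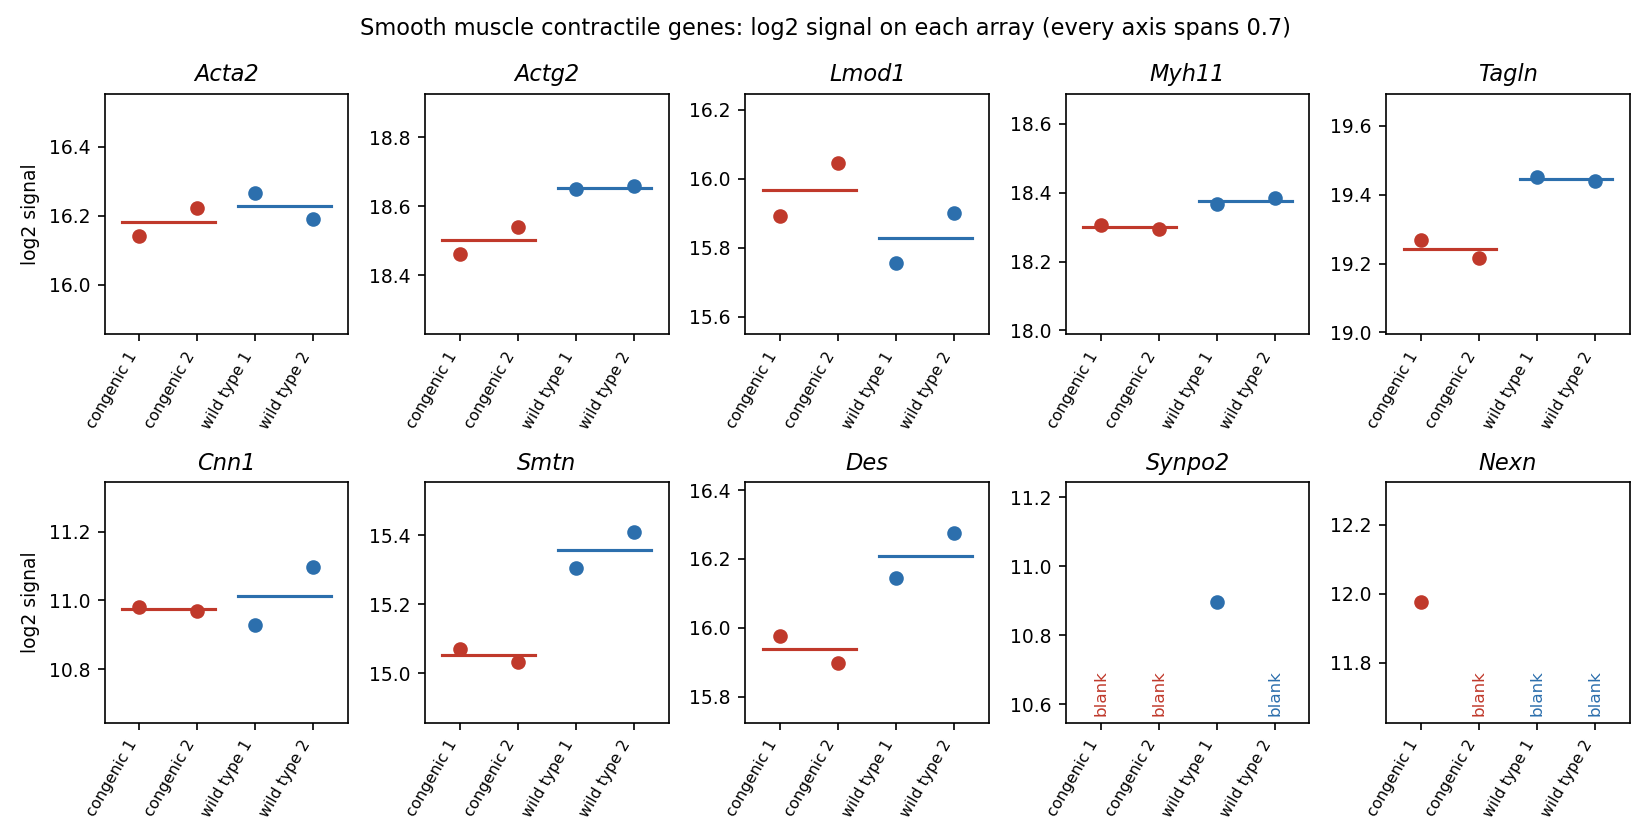
Log2 signal (vertical axes, each spanning 0.7) of the 10 genes on the 4 arrays, congenic pools in red and wild-type pools in blue. Points are single pools and lines are means of 2 pools. The congenic points lie below the wild-type points for Actg2, Myh11, Tagln, Smtn and Des and overlap with them for Acta2, Lmod1 and Cnn1, and Synpo2 and Nexn have a value on 1 array each.

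The actins form the thin filament. Acta2 (probe 325295), the smooth muscle alpha-actin of vessels and viscera, read 16.14 and 16.22 in congenic pools 1 and 2, against 16.27 and 16.19 in wild-type pools 1 and 2. The strains overlapped, and the difference of -0.046 ± 0.074 was smaller than the gap of 0.080 between the congenic pools (limma adjusted p = 0.786). Actg2 (probe 912820), the gamma-actin of visceral smooth muscle, read 18.46 and 18.54 in the congenic pools, against 18.65 and 18.66 in the wild-type pools. Both congenic values were the lower, by 0.15 on average, while the wild-type pools differed by 0.0086 (difference -0.15 ± 0.075, limma adjusted p = 0.382). Lmod1 (probe 651115), leiomodin, which nucleates actin filaments, was the gene with the positive difference. It read 15.89 and 16.05 in the congenic pools, against 15.75 and 15.90 in the wild-type pools. Congenic pool 1 and wild-type pool 2 were nearly equal, and the difference of 0.14 ± 0.091 was below the gap of 0.15 between the congenic pools (limma adjusted p = 0.486).

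Myh11 (probe 577278), the myosin heavy chain of smooth muscle, is the motor of the thick filament. It read 18.31 and 18.29 in the congenic pools, against 18.37 and 18.38 in the wild-type pools. The strains did not overlap, but were 0.075 apart, or 1.05-fold (-0.075 ± 0.070, limma adjusted p = 0.630). The pools of a strain differed by 0.012 in the congenic and 0.019 in the wild-type mice.

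Tagln, Cnn1 and Smtn encode proteins bound to the thin filament. Tagln (probe 560104), transgelin, also called SM22 alpha, read 19.27 and 19.21 in the congenic pools, against 19.45 and 19.44 in the wild-type pools. The strains did not overlap, and the difference of -0.20 ± 0.077 was 1.15-fold (95% interval -0.39 to -0.017, limma adjusted p = 0.291). Cnn1 (probe 570874), calponin, which inhibits the myosin ATPase, read 10.98 and 10.97 in the congenic pools, against 10.93 and 11.10 in the wild-type pools. Its wild-type pools enclosed the congenic ones, and it had the widest interval of the 8, -0.48 to 0.41 (difference -0.037 ± 0.18, limma adjusted p = 0.935). Without wild-type pool 2 the Cnn1 difference was 0.046, and no other member changed sign under the alternatives tried. Smtn (probe 924748), smoothelin, an actin-associated protein of contractile smooth muscle cells, had the largest difference of the 8. It read 15.07 and 15.03 in the congenic pools, against 15.31 and 15.41 in the wild-type pools. The lower wild-type pool was above both congenic pools, and the difference was -0.31 ± 0.077, or 1.24-fold (95% interval -0.50 to -0.12, limma adjusted p = 0.188). Of all probes, 78.1% had a smaller difference in size.

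Des and the remaining members connect the filaments to dense bodies and to the membrane. Des (probe 619020), desmin, the intermediate filament of muscle, read 15.98 and 15.90 in the congenic pools, against 16.14 and 16.27 in the wild-type pools. The strains did not overlap, and the difference was -0.27 ± 0.080, or 1.21-fold (95% interval -0.47 to -0.076, limma adjusted p = 0.230). Desmin is made in smooth and in striated muscle. Without Des the median over the other 7 members was -0.075, which is the value of Myh11. The same median is left when Smtn, Tagln or Actg2 is dropped in place of Des. When Myh11, Acta2, Cnn1 or Lmod1 is dropped, the value of Actg2, -0.15, is left. The median without Des therefore shows nothing particular to Des.

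Synpo2 (probe 579022), myopodin, which bundles actin, read 10.89 in wild-type pool 1 and was blank on the other 3 arrays. Nexn (probe 485775), nexilin, an actin filament-binding protein of muscle, read 11.97 in congenic pool 1 and was blank on the other 3 arrays. Neither was compared. A blank was not read as an absent transcript. Where a probe's other 3 arrays all had a value, with a mean under 11, an array was blank in 10.3% to 17.4% of cases. With that mean between 11 and 12 it was blank in 1.37% to 4.93%. Synpo2 and Nexn, blank on 3 arrays, are not among those probes, so these rates do not describe them. For Actb, the cytoplasmic beta-actin, wild-type pool 1 was blank while the other arrays read 19.69, 19.61 and 19.68. Actb was singled out after its values were seen.

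**Figure D2:**
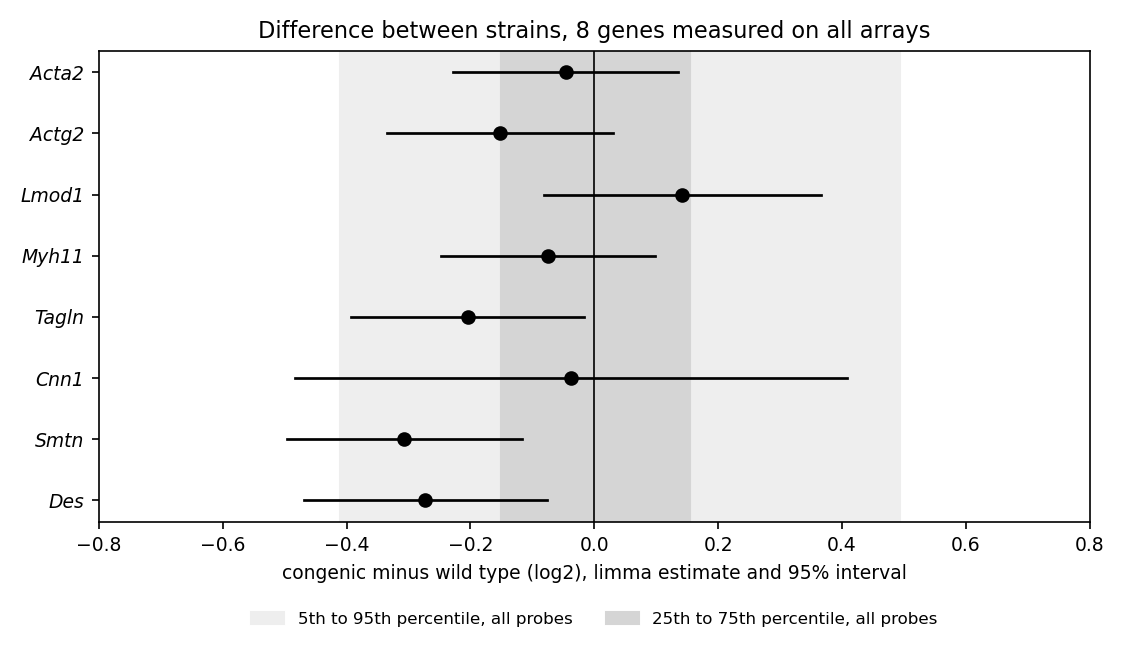
Difference between strains for the 8 genes measured on all arrays (horizontal axis, congenic minus wild type, log2). Points are limma estimates from 2 pools per strain and lines are 95% intervals, over the 5th to 95th percentile (light grey, -0.41 to 0.49) and the 25th to 75th percentile (dark grey, -0.15 to 0.15) of 13475 probes. All 8 points lie inside the light band, and the intervals of Smtn, Des and Tagln do not cross 0.

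The gap between the 2 pools of a strain was between 0.0086 and 0.17 for these genes. That is over 16 values, from 8 genes read on the same pair of pools in each strain. Their median was 0.077, where the median over all probes was 0.13. All probes were not matched to these genes for signal, and most of the 8 read high, so the smaller gap cannot be called particular to them. By array, the median deviation of the 8 genes from their own means was -0.069 and -0.040 in congenic pools 1 and 2, and 0.066 and 0.088 in wild-type pools 1 and 2. Over all probes the median deviation was 0.0051 and -0.014 in congenic pools 1 and 2, and 0.0064 and 0.0028 in wild-type pools 1 and 2. In congenic pool 1 all 8 genes lay below their own mean, in congenic pool 2, 6 did, in wild-type pool 1, 2 did and in wild-type pool 2, 1 did. The share of all probes was not counted. The 8 genes were read on the same pools, so these counts restate the differences above and add no support to them. The 5 single-symbol genes closest to the median deviation of the members over the 4 arrays were Txndc5, Tsen34, Mphosph6, Psme2 and Stag1, at root mean square distances of 0.012 to 0.015. Txndc5, a protein disulfide isomerase, read 15.16 and 15.18 in the congenic pools, against 15.29 and 15.30 in the wild-type pools. Of the members, which themselves set that median, Actg2 was closest (0.024, with 0.570% of 7899 other single-symbol probes closer). Between 2.04% and 15.8% of those probes were closer than Myh11, Tagln, Acta2 and Cnn1. The share was 25.3% for Des, 29.4% for Smtn and 57.4% for Lmod1, the farthest at 0.15.

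The rest of the contractile machinery was read through 5 lists of 146 genes, of which 106 had a probe and 70 a value on all arrays. None of the 70 passed in limma. At an unadjusted p under 0.05, 4 were higher and 9 lower in the congenic pools, where 7.12% of all probes were higher and 8.66% lower. Among other thin filament, myosin and attachment proteins, 25 of 44 genes were compared, with a median of -0.017 (-0.065 to -0.023 when any 1 pool was left out, lowest without wild-type pool 1). In that list 1 had an unadjusted p under 0.05 in the higher direction and 3 in the lower, where 15.8% of all probes did in either. Those 4 are the genes named next. Vcl, vinculin, which ties actin to membrane adhesions, read 11.29 and 11.78 in the congenic pools, against 12.14 and 12.29 in the wild-type pools (-0.68 ± 0.20, limma adjusted p = 0.223). Tln1, talin, the partner of vinculin at integrins, differed by -0.26 ± 0.084, and Pdlim3, an actinin-binding protein, by -0.25 ± 0.070. Cald1, caldesmon, a thin filament inhibitor, read 12.59 and 12.91 in the congenic pools, against 12.36 and 12.22 in the wild-type pools (0.46 ± 0.15, limma adjusted p = 0.250).

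Proteins that set myosin phosphorylation gave 15 of 22 compared, with a median of -0.059 (-0.097 to -0.035 when any 1 pool was left out, weakest on dropping wild-type pool 1). At an unadjusted p under 0.05 there were 1 higher and 2 lower, against 7.12% and 8.66% of all probes. Arhgef12, a guanine nucleotide exchange factor, read 12.06 and 12.02 in the congenic pools, against 11.52 and 11.52 in the wild-type pools (0.52 ± 0.13, limma adjusted p = 0.193). Dapk3, a kinase of myosin and its phosphatase, differed by -0.29 ± 0.088. Ppp1r14a, the myosin phosphatase inhibitor CPI-17, differed by -0.21 ± 0.082, and Calm2, a calmodulin gene of chromosome 17, by -0.21 ± 0.087.

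Calcium handling and ion channels were measured thinly, with 5 of 24 genes compared. Their median of 0.15 turned to -0.17 without wild-type pool 1 and to -0.10 without wild-type pool 2, and so has no settled sign. The caveolar genes Cav1 and Cavin1 differed by -0.52 ± 0.23 and 0.15 ± 0.20, the calcium sensor Stim1 by 0.25 ± 0.11 and the calcium store protein Casq2 by -0.21 ± 0.11. None reached an unadjusted p of 0.05 in limma. Of the receptors and G proteins that act on this muscle, 13 of 34 were compared, and 0 passed in limma, adjusted or not. The median was -0.016, with values from -0.060 (without wild-type pool 2) to 0.11 (without wild-type pool 1) when a pool was left out. The prostaglandin receptors Ptger3 and Ptger4 differed by 0.36 ± 0.20 and 0.22 ± 0.15, the endothelin receptor Ednrb by 0.35 ± 0.23 and the G protein Gna11 by -0.16 ± 0.11. Glp1r, the gene in the study's title, had a value on 1 array, 10.08 in wild-type pool 1, and was not compared.

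Transcription factors of smooth muscle gave 12 of 22 compared, and 0 passed an adjusted p of 0.05 in limma. The median of -0.022 had no settled sign. It was 0.090 or 0.070 when pool 1 of the congenic or of the wild-type strain was dropped, and -0.088 or -0.098 when their pool 2 was dropped. An unadjusted p under 0.05 was reached by 6 of the 12, 2 higher and 4 lower, against 7.12% and 8.66% of all probes. Srf, the serum response factor that binds the CArG box and a gene of chromosome 17, read 13.91 and 13.87 in the congenic pools, against 13.51 and 13.60 in the wild-type pools (0.33 ± 0.090, limma adjusted p = 0.203). Klf4, a repressor of the contractile programme, read 15.59 and 15.55 in the congenic pools, against 15.87 and 16.04 in the wild-type pools (-0.38 ± 0.085, limma adjusted p = 0.177). Gata6 differed by -0.35 ± 0.085 and Klf5 by -0.29 ± 0.070. Klf4, Klf5 and Gata6 are also expressed in epithelium, which these whole-stomach samples contain.

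Skeletal muscle actin, a fast myosin light chain and a fast troponin were lower in the congenic pools. Of 32 listed genes 10 were compared, all 10 with negative differences, with a median of -0.99, and 3 fell in limma, where 0.186% of all probes did. Acta1, the skeletal alpha-actin, read 14.53 and 14.52 in the congenic pools, against 16.12 and 16.09 in the wild-type pools, and fell by 1.58 ± 0.070 (limma adjusted p = 0.0009033). Myl1, a fast myosin light chain, fell by 1.74 ± 0.16 and Tnnt3, a fast troponin, by 1.18 ± 0.13. Myl1 did not pass without congenic pool 1 (limma adjusted p = 0.0615), and Tnnt3 without congenic pool 1 or 2 (limma adjusted p = 0.175 and 0.179) or with the replicate block (limma adjusted p = 0.0892), and neither passed without the variance trend (limma adjusted p = 0.116 and 0.141), whereas Acta1 passed under all 10 alternatives. Of the genes that did not pass, Mb, myoglobin, differed by -1.77 ± 0.30, Mylpf by -1.08 ± 0.16, Tnnc2 by -0.90 ± 0.12 and Ckm, the muscle creatine kinase, by -0.38 ± 0.092.

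Mean log2 signal over the 10 striated genes was 12.26 and 12.22 in the congenic pools, against 13.10 and 13.27 in the wild-type pools. Over the 8 smooth muscle genes it was 16.26 and 16.28 in the congenic pools, against 16.36 and 16.42 in the wild-type pools. The part of striated muscle RNA in the Des difference was not tested. The log2 gap between the Acta1 and Acta2 probes changed by -1.53 between the strains, and that between Acta1 and Actg2 by -1.43. These changes in gap were not tested.

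**Figure D3:**
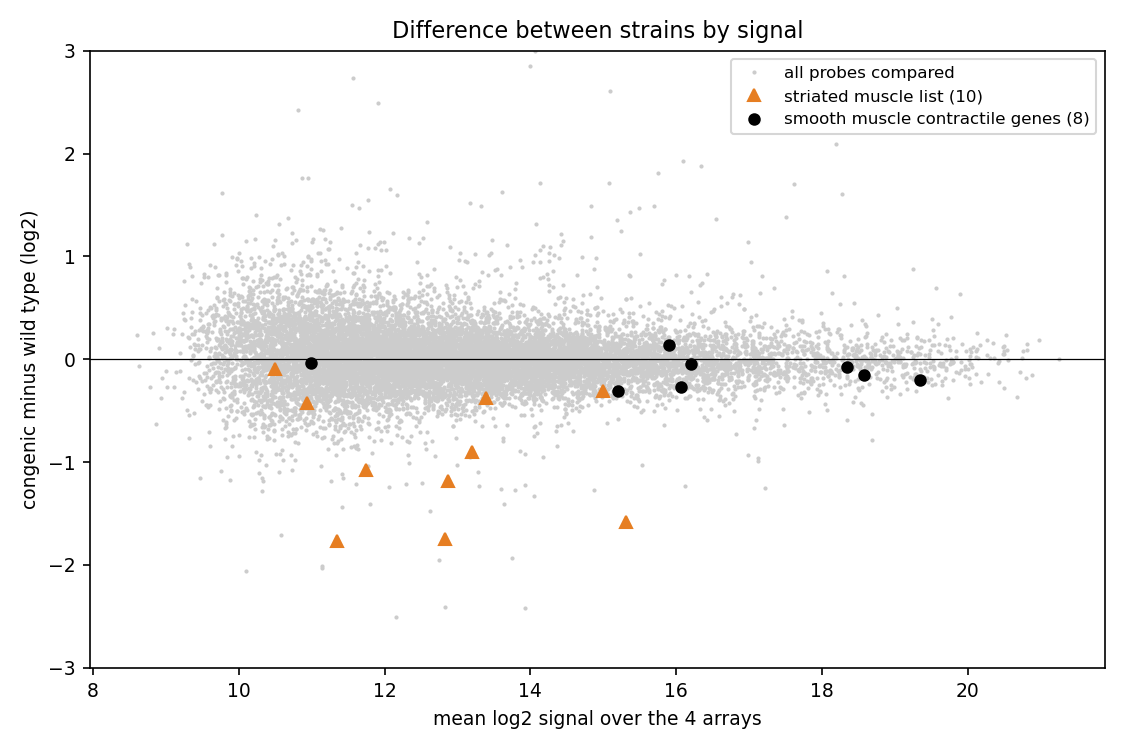
Difference between strains (vertical axis, congenic minus wild type, log2) against mean log2 signal over the 4 arrays (horizontal axis) for 13475 probes, of which 5 lie beyond the plotted limit of 3. The 8 smooth muscle genes (black circles) lie between -0.31 and 0.14, and the 10 striated muscle genes (orange triangles) reach -1.77.

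Other cell types of the wall gave no call in limma. Vascular mural cells, which also make smooth muscle actin, had 4 of 9 genes compared and a median of 0.017, which was -0.036 or -0.043 when pool 1 of the congenic or of the wild-type strain was dropped, and 0.069 or 0.076 when their pool 2 was dropped. At an unadjusted p under 0.05, 1 was higher, against 7.12% of all probes. That was Notch3, a receptor of vessel muscle and a gene of chromosome 17, at 13.22 and 13.18 in the congenic pools, against 12.62 and 12.68 in the wild-type pools (0.55 ± 0.10, limma adjusted p = 0.131). Kcnj8, Mcam and Rgs5 differed by -0.27 ± 0.13, 0.056 ± 0.11 and -0.023 ± 0.13. Of the interstitial cells of Cajal, which pace the muscle, 3 of 6 genes were compared, Kit (0.44 ± 0.22), Etv1 (0.43 ± 0.22) and Ano1 (0.068 ± 0.069), with 0 at an unadjusted p under 0.05. Their median of 0.43 was 0.087 without wild-type pool 1 and 0.12 without congenic pool 2. Kit read 13.47 and 13.51 in the congenic pools, against 12.69 and 13.40 in the wild-type pools. Wild-type pool 1 stood below the other 3 values.

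For the lists that follow, the median with each pool left out in turn is given as a range, and each range crosses 0. At an unadjusted p under 0.05, 7.12% of all probes were higher and 8.66% lower. Enteric neurons and glia had 11 of 23 compared with a median of -0.011 (-0.053 without congenic pool 1 to 0.11 without congenic pool 2) and 1 higher at an unadjusted p under 0.05, Vip, a relaxing neuropeptide (0.30 ± 0.088, limma adjusted p = 0.225). Gal, Tubb3 and Npy differed by 0.22 ± 0.11, -0.17 ± 0.11 and -0.24 ± 0.17. Fibroblast genes had 9 of 11 compared, a median of 0.017 (-0.029 without congenic pool 2 to 0.015 without wild-type pool 2) and 0 at an unadjusted p under 0.05, with Lum at -0.18 ± 0.10, Dcn at 0.12 ± 0.076, Col1a2 at -0.11 ± 0.099 and Mfap5 at 0.10 ± 0.090. The mucosa had 8 of 11 compared, a median of 0.020 (-0.041 without congenic pool 1 to 0.15 without congenic pool 2) and 1 lower at an unadjusted p under 0.05, the proton pump subunit Atp4a (-0.21 ± 0.079, limma adjusted p = 0.288). Cblif, Muc6 and Chia1 differed by 0.64 ± 0.33, -0.45 ± 0.46 and 0.090 ± 0.085. The squamous forestomach had 8 of 8 compared, a median of 0.0011 (-0.037 without wild-type pool 2 to 0.039 without wild-type pool 1) and 1 higher and 1 lower at an unadjusted p under 0.05, Sprr3 (0.22 ± 0.078) and Krt5 (-0.24 ± 0.093). Krt14 and Krt4 differed by -0.21 ± 0.090 and -0.17 ± 0.082.

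**Figure D4:**
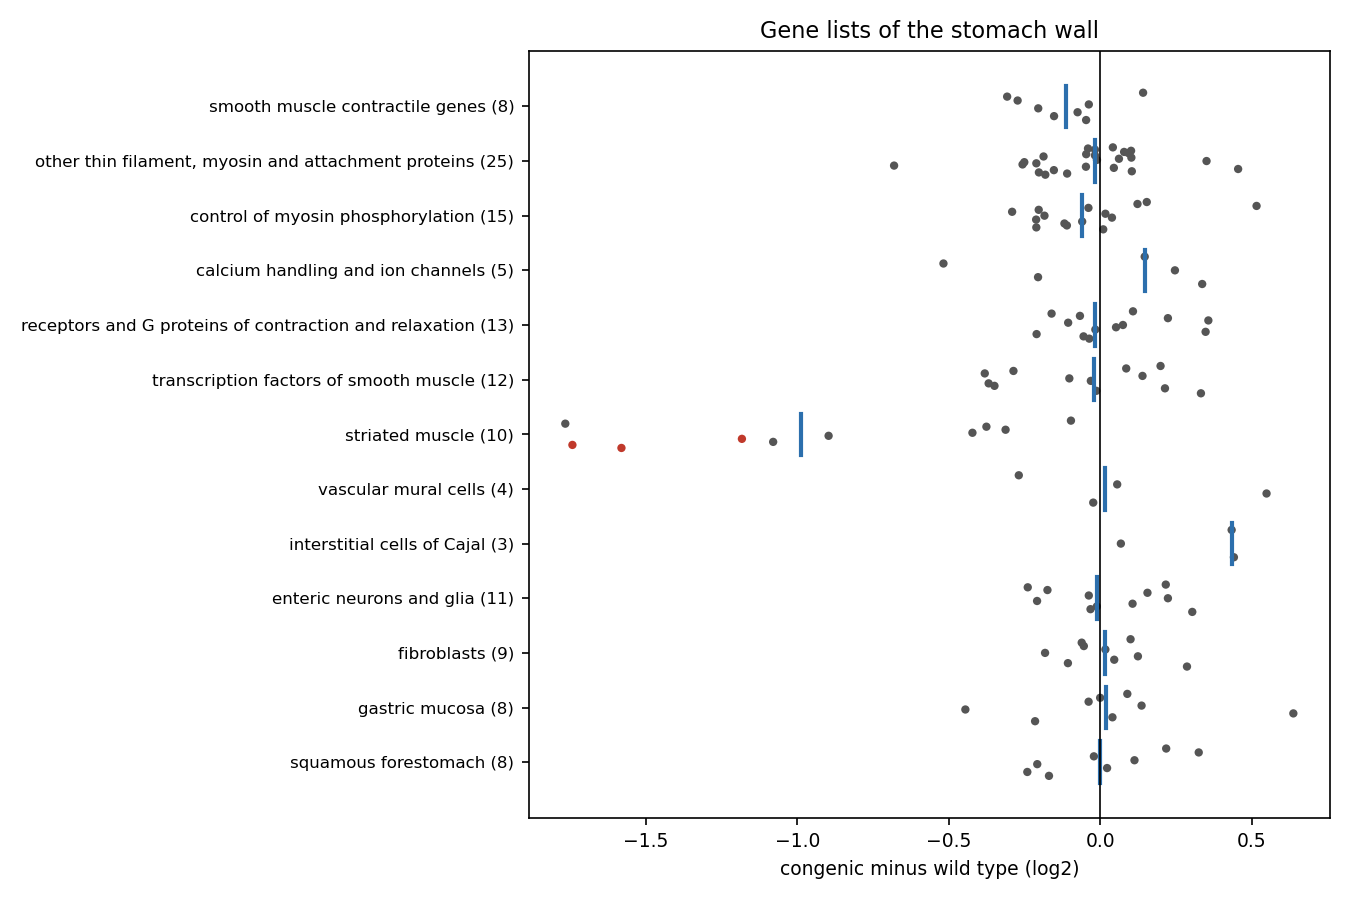
Difference between strains (horizontal axis, congenic minus wild type, log2) of each gene compared in 13 lists, the number compared in brackets. Grey points are genes that did not pass, red points are the 3 that passed an adjusted p of 0.05 in limma, and blue bars are list medians. The red points lie in the striated muscle list, whose median is -0.99, while the smooth muscle contractile genes have a median of -0.11.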

How the data were processed

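Per the labels' protocols, stomach RNA was isolated with TRIzol and 1 microgram of it gave digoxigenin-labelled cRNA for chemiluminescent arrays. Groups and pool numbers came from the sample titles. The authors deposited 1 log2 signal per probe and array, and the sources used here do not give its normalization, its log base or why cells are blank. The log base was inferred from the range, 6.73 to 21.2, and all differences and folds rest on it. Between 93.3% and 94.8% of an array's values recur on another array. Array medians over the 13475 probes compared lay between 12.819 and 12.824, so no further normalization was applied. Signal over background is unknown here, and the number of arrays limits the precision.

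Strains were compared per probe by a two-sided limma test (version 3.58.1, R 4.3.3, eBayes with a variance trend on signal). Residual degrees of freedom were 2 and prior ones 3.97. P-values were adjusted over 13475 probes by Benjamini and Hochberg. On simulated data for this comparison (13475 probes), the fit recovered 57% of probes changed by 1 log2 and 84% of those changed by 2. Probes with a blank on any array were left out, which kept 13475 of 33012, and no pseudocount or filter on level was used. Lists took the probe with the highest mean of a gene. Symbols came from the platform annotation and were updated by gene ID, and the reference annotation gave chromosomes only. The members, lists and tests were chosen with earlier results of these data known. Named were all members, every listed gene that passed, up to 4 further genes per list by p, and the 5 genes nearest in profile. Actb and Glp1r were added after their values were seen. Alternatives were a replicate block, quantile normalization, median centring, no variance trend, dim probes left out, 1 blank allowed, each pool left out, and averaging a gene's probes. Figures were drawn with matplotlib 3.10.9.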

Additional observations from a re-analysis of the deposited data

How the results depend on the processing

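None of the 8 measured smooth muscle genes passed in limma under any of 10 alternatives, and 78 of 79 differences kept their sign. The exception was Cnn1, at 0.046 without wild-type pool 2 and between -0.12 and 0.046 over the pools left out. For a probe with a value on every array, 4 settings leave the difference unchanged by construction. These are the replicate block, no variance trend, dim probes left out and 1 blank allowed. Their signs were therefore fixed in advance. In the 5 genes whose congenic values both lay below both wild-type values, leaving out 1 pool could not change the sign either. Only the normalizations, and the pools left out for Acta2, Lmod1 and Cnn1, could change a sign. Array medians were already nearly equal, so median centring could move a difference only slightly. Most of the signs kept are thus no evidence of stability. Over all alternatives the median of the genes lay between -0.15 and -0.097. The titles give pools the same numbers, but nothing links pool 1 of the strains, and the deviations of same-numbered pools had a correlation of -0.064. With the replicate block 35 of 13475 probes passed, against 64 without it, and 2 of the 8 smooth muscle genes had an unadjusted p under 0.05, against 3. The block ended the call of Tnnt3 and of no other listed gene. Without the variance trend 20 probes passed, and 1 listed gene, Acta1, in place of 3. Leaving out 1 pool gave between 15 and 168 probes (dropping a congenic pool left 15 or 27, and dropping wild-type pool 2 gave 168), and between 1 and 6 listed genes (1 without congenic pool 1, 6 without wild-type pool 2). With dim probes left out, the list medians were 0.021 for calcium handling, 0.028 for transcription factors, 0.26 for mural cells and 0.26 for interstitial cells of Cajal, against 0.15, -0.022, 0.017 and 0.43 over all probes. This setting leaves the difference of each kept gene unchanged, so these medians moved because list genes below the median level dropped out. Cnn1 is below the median level and had no value when dim probes were left out. Blanks limit Synpo2 and Nexn.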
